A study of Mus musculus with 12 samples.

Results

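Proteoglycans are proteins that carry long, negatively charged sugar chains, the glycosaminoglycans heparan sulfate and chondroitin or dermatan sulfate. A short linker sugar is built on a serine of the core protein in the ER and Golgi, polymerases extend it, and sulfotransferases and epimerases modify the chain, which then binds growth factors such as Fgf, Bmp and Nodal family ligands at the cell surface. Mouse embryonic stem cells need heparan sulfate to respond to Fgf signals when they leave self-renewal. The core proteins are made on ER ribosomes and the chain enzymes are mostly Golgi membrane proteins, whereas the enzymes that make the activated sugar and sulfate donors are soluble proteins of the cytosol or nucleus. The list described here holds 47 genes named for these roles, of 55416 gene IDs in each count table; all 47 matched 1 ID, and 46 had enough reads to be tested.

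The data were 12 poly-A RNA-seq libraries of the mouse embryonic stem cell line E14Tg2a.4, in which all cells carried the ribosomal protein Rpl31 with a FLAG-TEV-AviTag. Ribosomes near the ER were biotinylated through this tag by ALIBi, a proximity labelling method directed to the ER, and then affinity-purified. There were 4 groups, each of 3 libraries described as biological replicates. ER-bound RNA and whole-cell RNA came from the same lysates of cells given Lsg1 siRNA, and ER-bound RNA and whole-cell RNA likewise came from the same lysates of cells given scramble siRNA, a control sequence. Lsg1 is a GTPase of the last cytoplasmic steps of large ribosomal subunit maturation. The samples are 1 cell line with a tagged ribosomal protein, and RNA counted as ER-bound is RNA that copurified with labelled ribosomes, set against whole-cell RNA that also holds untranslated and nuclear RNA.

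Libraries held 38092178 to 56522114 reads in genes, and values below are CPM, reads scaled to a common library size after TMM normalization. Lsg1 averaged 43.5 ± 8.62 CPM in ER-bound RNA with Lsg1 siRNA and 148 ± 4.46 CPM in ER-bound RNA with scramble siRNA (SD, n = 3 each). The log2 fold was -1.77 (SE 0.11, adjusted p = 6.28e-08). In whole-cell RNA it averaged 98.0 ± 15.1 CPM with Lsg1 siRNA and 143 ± 6.38 CPM with scramble siRNA, and that difference did not pass the threshold of 0.05 (adjusted p = 0.245). The summed level of 12 embryonic stem cell markers was 10500 to 11600 CPM in ER-bound RNA and 8480 to 8700 CPM in whole-cell RNA, while 10 fibroblast or feeder cell markers summed to 52.7 to 64.2 CPM in ER-bound RNA and 30.6 to 33.6 CPM in whole-cell RNA, the largest share of which was Thy1, at 38.7 to 48.7 CPM in ER-bound RNA and 19.6 to 22.5 CPM in whole-cell RNA. Col1a1 was at 5.81 to 6.54 CPM in ER-bound RNA and 4.08 to 4.60 CPM in whole-cell RNA, Pdgfrb and Fbln2 were detected at 1.86 to 4.34 CPM over all libraries, Lum had 0 reads in every library, and Dcn reached no more than 0.0708 CPM. Markers of primitive endoderm, 11 genes, summed to 60.7 to 64.5 CPM in ER-bound RNA and 81.3 to 85.3 CPM in whole-cell RNA, mostly from Lama1 and Col4a1. Markers of primed or early lineage cells, 10 genes, summed to 287 to 318 CPM in ER-bound RNA and 417 to 467 CPM in whole-cell RNA, mostly from Dnmt3b. The part of any of these other cell types in the results was not tested, and in bulk samples fewer cells of a type and less RNA per cell cannot be told apart. An unnamed gene ID took 18500 CPM in the third ER-bound scramble library, against 1120 to 1320 CPM in the other ER-bound libraries, and 15600 CPM in the third whole-cell Lsg1 library, against 2220 to 4140 CPM in the other whole-cell libraries. Results that change without these libraries are given beside the result.

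A signal peptide or a membrane anchor near the start of a protein sends its ribosome to the ER, and both are runs of hydrophobic residues. Codons with T in the middle position encode phenylalanine, leucine, isoleucine, methionine and valine. The windows of 20 codons that hold most such codons among the first 60 after the start codon are printed here for the genes that the results turn on, from the GENCODE coding sequences on GRCm38, with those codons in capitals. Sdc4, a syndecan, had the largest ER-bound fold of the well expressed genes; Gpc4, Hs2st1 and Csgalnact2 changed on ER ribosomes with Lsg1 siRNA; Extl2 is a strongly anchored transferase; Agrn encodes a secreted core protein that was nevertheless lower in ER-bound RNA; and Ugdh encodes a cytosolic precursor enzyme.
Sdc4, codons 2 to 21, chr2:164443102-164443161, minus strand: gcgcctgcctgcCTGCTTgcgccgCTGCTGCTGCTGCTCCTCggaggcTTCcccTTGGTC
Gpc4, codons 2 to 21, chrX:52164713-52164772, minus strand: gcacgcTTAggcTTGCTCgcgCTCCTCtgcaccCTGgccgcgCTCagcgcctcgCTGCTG
Hs2st1, codons 3 to 22, chr3:144569792-144569851, minus strand: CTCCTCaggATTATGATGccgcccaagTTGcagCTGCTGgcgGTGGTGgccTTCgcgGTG
Csgalnact2, codons 13 to 32, chr6:118129260-118129319, minus strand: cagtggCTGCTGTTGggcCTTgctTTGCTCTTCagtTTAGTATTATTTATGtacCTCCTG
Extl2, codons 14 to 33, chr3:116024038-116024097, plus strand: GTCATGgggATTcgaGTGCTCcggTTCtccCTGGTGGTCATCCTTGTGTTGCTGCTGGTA
Agrn, codons 2 to 21, chr4:156197358-156197417, minus strand: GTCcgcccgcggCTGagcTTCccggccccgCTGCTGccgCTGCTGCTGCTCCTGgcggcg
Ugdh, codons 18 to 37, chr5:65427467-65427526, minus strand: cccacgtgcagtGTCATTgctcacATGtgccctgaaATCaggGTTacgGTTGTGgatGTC

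These windows hold 11 such codons in Sdc4, 9 in Gpc4, 12 in Hs2st1, 14 in Csgalnact2, 16 in Extl2, 10 in Agrn and 8 in Ugdh. Agrn and Ugdh differ little in this count although only Agrn encodes a secreted protein, since the count does not ask whether the codons are adjacent. The median over the 46 tested genes was 10, and over 14611 tested coding genes it was 8. Windows with 12 or more such codons were found in 19 of the 46 genes and in 6.72% of all tested coding genes. Among all tested coding genes with such a window, 68.8% were higher in ER-bound RNA with scramble siRNA and 4.68% were lower; of the 19 genes on the list, 16 were higher and 1 was lower. Of the 13 genes with only 7 to 9 such codons, which include 3 of the syndecans and the glypicans Gpc3, Gpc4 and Gpc6, 12 were higher and 1, Ugdh, was lower, with a median log2 fold of 0.79, compared with 0.51 for the 19 genes. Of all tested coding genes with 7 to 9 such codons, 29.4% were higher and 35.4% lower.

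Most of the list was higher in ER-bound than in whole-cell RNA. With Lsg1 siRNA, 35 of 46 tested genes were higher and 5 lower (76.1% and 10.9%), against 30.6% higher and 29.8% lower of all 17702 tested genes. With scramble siRNA, 36 of 46 were higher and 5 lower (78.3% and 10.9%), against 29.8% and 29.1% of all tested genes. The median log2 fold over the list was 0.55 with Lsg1 siRNA and 0.52 with scramble siRNA, while the medians of all tested genes were 0.02 and 0.03. The calls were shared for 34 genes that were higher and 4 genes that were lower with either siRNA. All calls come from the quasi-likelihood test of edgeR, with p-values adjusted over all tested genes by Benjamini-Hochberg. At least 2-fold higher, and also called, were 6 of the 46 genes with Lsg1 siRNA, against 4.45% of all tested genes, and 3 with scramble siRNA, against 3.44%. With Lsg1 siRNA they were Sdc4, Sdc1, Gpc1, Chst7, Hs3st1 and Bgn, and with scramble siRNA Sdc4, Sdc2 and Chsy3. Of these, Chst7, Hs3st1, Bgn and Chsy3 were scarce, with few reads per library. Without the third ER-bound scramble and the third whole-cell Lsg1 library, 34 genes were higher and 5 lower with either siRNA.

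**Figure D1:**
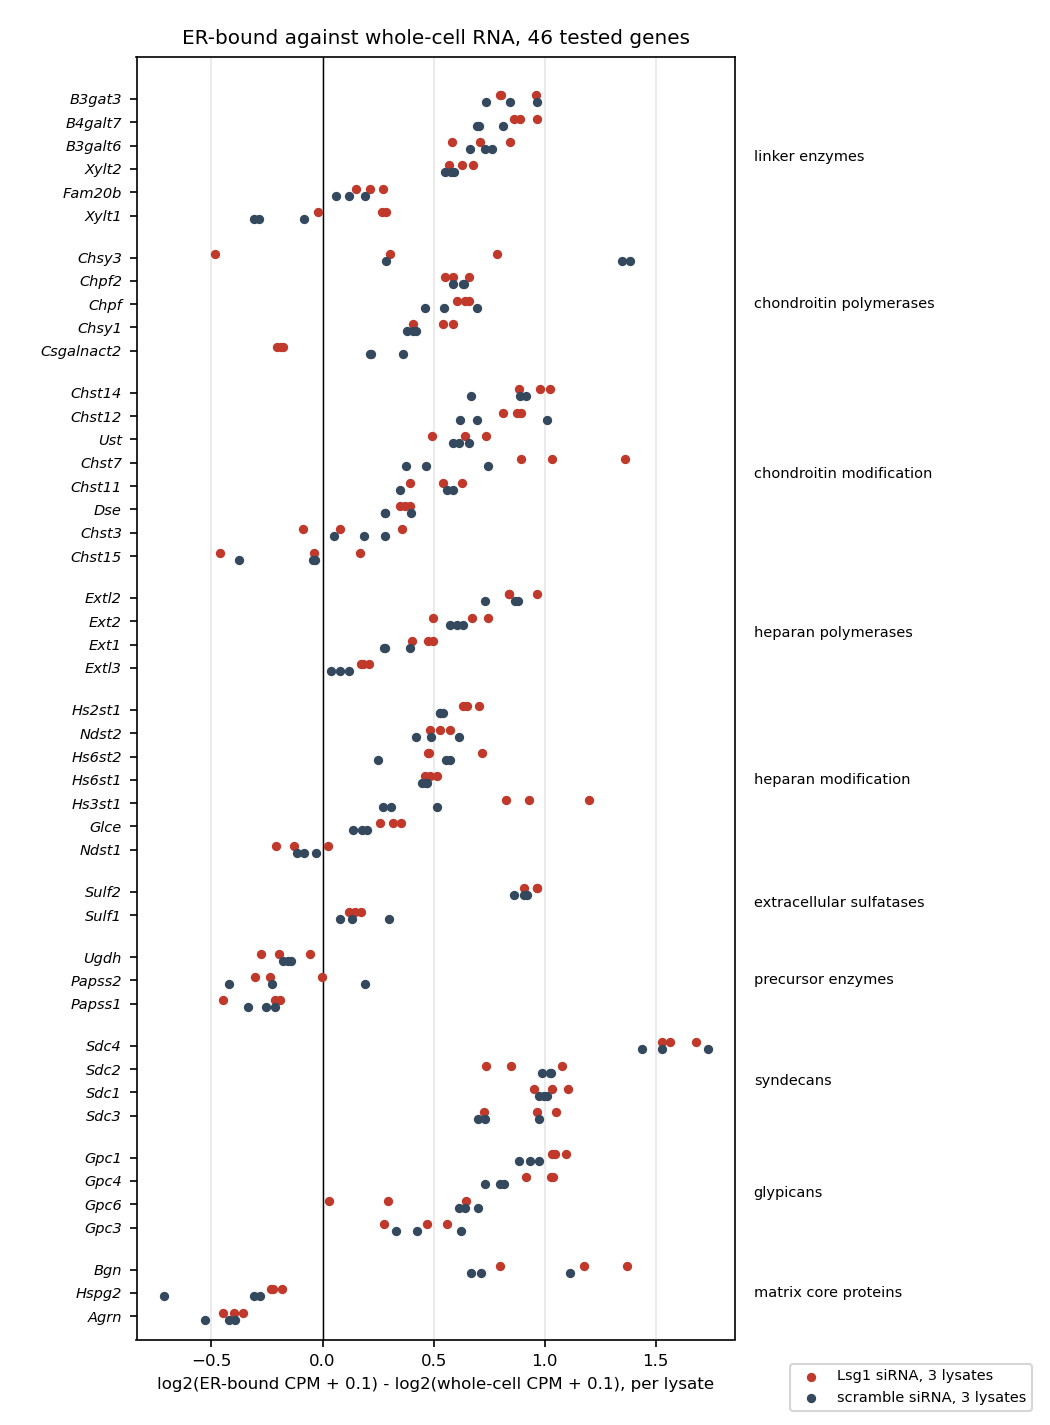
Log2 ratio of ER-bound to whole-cell CPM (0.1 CPM added to both) in each lysate for the 46 tested genes by role, with 3 Lsg1 siRNA lysates (upper, red) and 3 scramble siRNA lysates (lower, dark) per gene. Sdc4 sits furthest to the right, at 1.44 to 1.73, the precursor enzymes, Agrn and Hspg2 lie mostly left of 0, and Csgalnact2 lies left of 0 with Lsg1 siRNA and right of 0 with scramble siRNA.

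The syndecans, transmembrane core proteins that carry heparan sulfate and in some cases chondroitin sulfate, had the highest median log2 fold of any role, 0.98 with Lsg1 siRNA and 1.01 with scramble siRNA, and all 4 were higher in ER-bound RNA with either siRNA. Sdc4 had 108, 102 and 102 CPM in ER-bound RNA, against 37.2, 34.5 and 31.7 CPM in whole-cell RNA with Lsg1 siRNA. It had 98.7, 95.1 and 102 CPM in ER-bound RNA, against 36.4, 32.9 and 30.7 CPM in whole-cell RNA with scramble siRNA. The ER-bound libraries were all far above the whole-cell libraries, with log2 folds of 1.59 (SE 0.06, adjusted p = 1.52e-13) for Lsg1 siRNA and 1.57 (SE 0.06, adjusted p = 2.58e-13) for scramble siRNA. Sdc1, the main epithelial syndecan, had log2 folds of 1.03 with Lsg1 siRNA and 0.99 with scramble siRNA. Sdc2 and Sdc3 were less abundant, with 8.91 to 11.5 CPM for Sdc2 and 7.14 to 8.42 CPM for Sdc3 in ER-bound RNA, and had log2 folds of 0.91 and 0.92 with Lsg1 siRNA.

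The glypicans, heparan sulfate core proteins held in the outer membrane by a lipid anchor, were likewise higher for all 4 genes with either siRNA. Gpc1 had 74.7, 72.0 and 74.6 CPM in ER-bound RNA, against 36.4, 34.8 and 34.9 CPM in whole-cell RNA with Lsg1 siRNA. It had 68.5, 64.7 and 66.8 CPM in ER-bound RNA, against 35.9, 35.0 and 34.0 CPM in whole-cell RNA with scramble siRNA. Its groups did not overlap, and the log2 folds were 1.06 (SE 0.04, adjusted p = 7.77e-14) with Lsg1 siRNA and 0.93 (SE 0.04, adjusted p = 4.87e-13) with scramble siRNA. Gpc4 had log2 folds of 1.00 and 0.79, and Gpc3, the gene mutated in an X-linked human overgrowth syndrome, had 0.45 and 0.47, each given for Lsg1 siRNA and then scramble siRNA. Gpc6 was scarce at 1.59 to 2.25 CPM in ER-bound RNA, and its call with Lsg1 siRNA was lost when any of 9 libraries was left out, among them the third ER-bound scramble and the third whole-cell Lsg1 library.

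Of the 3 matrix core proteins, the small leucine-rich proteoglycan Bgn was higher in ER-bound RNA, at log2 folds of 1.19 with Lsg1 siRNA and 0.86 with scramble siRNA, from 1.02 to 1.61 CPM in ER-bound RNA and 0.51 to 0.838 CPM in whole-cell RNA. The other two, agrin and perlecan, are very large basement membrane heparan sulfate proteoglycans, and both were lower. Agrn had 158, 157 and 159 CPM in ER-bound RNA, against 202, 207 and 216 CPM in whole-cell RNA with Lsg1 siRNA. It had 147, 161 and 166 CPM in ER-bound RNA, against 213, 212 and 223 CPM in whole-cell RNA with scramble siRNA. All ER-bound libraries lay below all whole-cell libraries, and the log2 folds were -0.40 (SE 0.04, adjusted p = 7.79e-08) with Lsg1 siRNA and -0.45 (SE 0.04, adjusted p = 1.91e-08) with scramble siRNA.

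Hspg2, which encodes perlecan, had 187, 172 and 193 CPM in ER-bound RNA, against 212, 202 and 225 CPM in whole-cell RNA with Lsg1 siRNA. It had 130, 169 and 177 CPM in ER-bound RNA, against 214, 210 and 215 CPM in whole-cell RNA with scramble siRNA. The first ER-bound scramble library was well below the other two, and without it the log2 fold with scramble siRNA was -0.30, compared with -0.42 (SE 0.08, adjusted p = 1.33e-04) with all libraries. With Lsg1 siRNA the log2 fold was -0.21 (SE 0.08, adjusted p = 0.0258), and this call was lost without the second ER-bound Lsg1 library or without the third whole-cell Lsg1 library (adjusted p = 0.0877 to 0.0987), with library totals alone (-0.12, adjusted p = 0.156) and with DESeq2 (adjusted p = 0.0564).

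Agrn and Hspg2 have the longest coding sequences on the list, 2034 and 4383 codons, and no other tested gene on it reaches 1000 codons. Over all tested coding genes the median log2 fold with scramble siRNA was 0.16 for those under 500 codons, -0.10 for 500 to 999 codons, -0.41 for 1000 to 1999 codons and -0.81 for 2000 codons or more. Across the 43 tested genes other than the precursor enzymes, Spearman's rho between coding length and log2 fold was -0.53, and across 14611 tested coding genes it was -0.45, or -0.43 and -0.28 with an offset for GC content and transcript length; genes of 1 library share its depth and base composition, and these values are descriptions. When trends with GC content and transcript length were removed with an offset, Agrn was still lower in ER-bound RNA (log2 fold -0.14 with Lsg1 siRNA and -0.15 with scramble siRNA). Hspg2 turned to 0.26 with Lsg1 siRNA (adjusted p = 2.91e-04) and to 0.07 with scramble siRNA (adjusted p = 0.298), so its direction depended on this choice. With the offset, 40 genes were higher and 2 lower with Lsg1 siRNA, and 37 higher and 2 lower with scramble siRNA.

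**Figure D2:**
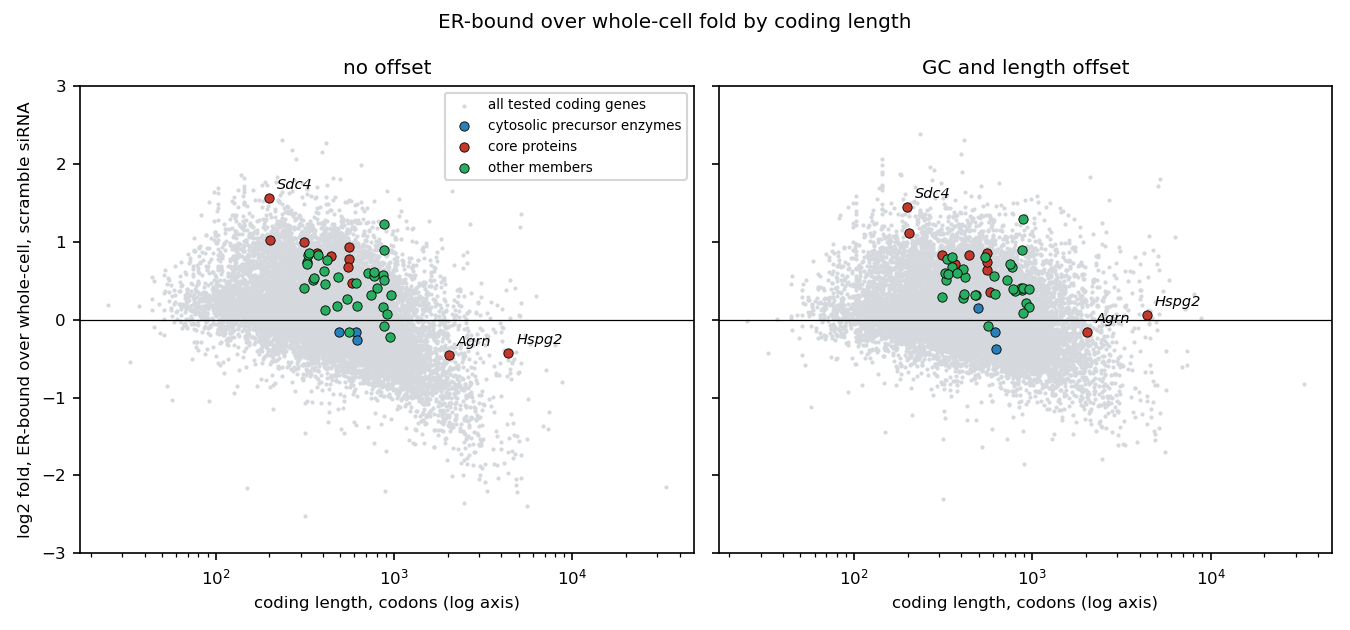
Log2 fold of ER-bound over whole-cell RNA with scramble siRNA (vertical axis) against coding length in codons (log axis) for all tested coding genes (grey) and the tested genes on the list (coloured by role), without (left) and with (right) an offset for GC content and transcript length. The grey cloud slopes down with length on the left (median -0.81 at 2000 codons or more) and less on the right (median -0.35), and Agrn at -0.45 and Hspg2 at -0.42 on the left lie above that median.

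Chains start with 6 enzymes of the linker. Xylosyltransferases add the first sugar, B4galt7, B3galt6 and B3gat3 add the next ones, and the kinase Fam20b phosphorylates the xylose. Xylt2, B4galt7, B3galt6, B3gat3 and Fam20b were higher in ER-bound RNA with either siRNA. Xylt2 had 62.2, 62.6 and 60.9 CPM in ER-bound RNA, against 38.9, 40.5 and 41.1 CPM in whole-cell RNA with Lsg1 siRNA, a log2 fold of 0.62 (SE 0.03, adjusted p = 1.36e-11). It had 58.4, 58.3 and 59.7 CPM in ER-bound RNA, against 39.1, 39.8 and 39.6 CPM in whole-cell RNA with scramble siRNA, for a log2 fold of 0.57 with SE 0.03 and adjusted p = 4.93e-11. The ER-bound libraries lay above the whole-cell libraries without overlap. B4galt7 and B3gat3 had log2 folds of 0.90 and 0.85 with Lsg1 siRNA, and Fam20b had the smallest fold of the 5 genes, 0.22 with Lsg1 siRNA and 0.12 with scramble siRNA; the scramble siRNA call was lost without the first or second whole-cell scramble library or without the third ER-bound scramble library (adjusted p = 0.0543 to 0.142).

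The other xylosyltransferase gene, Xylt1, differed from Xylt2. It had 9.24, 8.46 and 9.52 CPM in ER-bound RNA, against 7.65, 8.59 and 7.78 CPM in whole-cell RNA with Lsg1 siRNA, where the log2 fold of 0.17 did not pass the threshold (SE 0.08, adjusted p = 0.0534). It had 7.34, 7.04 and 8.40 CPM in ER-bound RNA, against 9.12, 8.60 and 8.90 CPM in whole-cell RNA with scramble siRNA, for a log2 fold of -0.22 with SE 0.08 and adjusted p = 0.0163. The groups overlap with Lsg1 siRNA and do not overlap with scramble siRNA. The lower call with scramble siRNA was lost without the second ER-bound scramble library (adjusted p = 0.0596) and with library totals alone (adjusted p = 0.103), and with the GC and length offset the log2 fold was 0.16 (adjusted p = 0.0804). With Lsg1 siRNA Xylt1 passed as higher with the offset (0.53, adjusted p = 4.58e-06), with library totals alone (0.26, adjusted p = 0.00514), with a filter of at least 2 CPM in 3 libraries (adjusted p = 0.0402), and without the second ER-bound or the second whole-cell Lsg1 library (adjusted p = 0.0323 to 0.0344).

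Chondroitin chains are started by Csgalnact1 or Csgalnact2 and extended by Chsy1 or Chsy3 together with Chpf or Chpf2. Csgalnact1 was not tested, with 1 to 11 reads per library. Chpf had 43.2, 45.6 and 47.4 CPM in ER-bound RNA, against 27.7, 29.9 and 30.0 CPM in whole-cell RNA with Lsg1 siRNA, a log2 fold of 0.63 (SE 0.05, adjusted p = 1.96e-09). It had 42.1, 39.7 and 41.6 CPM in ER-bound RNA, against 25.9, 28.8 and 28.4 CPM in whole-cell RNA with scramble siRNA, for a log2 fold of 0.57 with SE 0.05 and adjusted p = 1.16e-08. The groups of Chpf did not overlap. Chsy1, at 52.2 to 58.8 CPM in ER-bound RNA, had log2 folds of 0.52 with Lsg1 siRNA and 0.41 with scramble siRNA, and Chpf2 had 0.61 and 0.62. Chsy3 was scarce, with 4 to 22 reads per library, and its call as higher with scramble siRNA (log2 fold 1.23, SE 0.34) was not made with Lsg1 siRNA (0.31, SE 0.34).

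Of the 8 genes that modify chondroitin, 6 were higher in ER-bound RNA with either siRNA. Chst12, a chondroitin 4-O-sulfotransferase, had 16.7, 17.5 and 16.6 CPM in ER-bound RNA, against 8.92, 9.53 and 9.39 CPM in whole-cell RNA with Lsg1 siRNA, a log2 fold of 0.86 (SE 0.07, adjusted p = 1.97e-09). It had 16.6, 15.4 and 16.0 CPM in ER-bound RNA, against 8.21, 9.97 and 9.87 CPM in whole-cell RNA with scramble siRNA, a log2 fold of 0.77 (SE 0.07, adjusted p = 1.09e-08). Its ER-bound libraries stood well above its whole-cell libraries. Chst14, the dermatan 4-O-sulfotransferase, had log2 folds of 0.97 with Lsg1 siRNA and 0.84 with scramble siRNA, and the uronyl sulfotransferase Ust had 0.62 and 0.63. Dse, the epimerase that turns chondroitin into dermatan, had 119 to 127 CPM in ER-bound RNA and 93.2 to 99.2 CPM in whole-cell RNA, with log2 folds of 0.37 and 0.32. Chst3, with log2 folds of 0.11 and 0.18, and Chst15, with -0.11 and -0.15, did not pass the threshold with either siRNA; both were under 5 CPM.

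Heparan sulfate is polymerized by Ext1 and Ext2, with Extl3 starting the chain and Extl2 adding a single sugar that can stop it, and all 4 genes were higher in ER-bound RNA. Ext2 had 71.6, 68.1 and 64.5 CPM in ER-bound RNA, against 42.7, 42.7 and 45.7 CPM in whole-cell RNA with Lsg1 siRNA, a log2 fold of 0.64 (SE 0.04, adjusted p = 1.91e-10). It had 67.6, 65.2 and 65.1 CPM in ER-bound RNA, against 43.6, 42.8 and 43.7 CPM in whole-cell RNA with scramble siRNA, a log2 fold of 0.60 (SE 0.04, adjusted p = 4.75e-10). No ER-bound library of Ext2 reached down to a whole-cell one. Ext1, the partner of Ext2 in the polymerase complex, had smaller log2 folds of 0.46 with Lsg1 siRNA and 0.32 with scramble siRNA, and Extl2 had larger ones of 0.89 and 0.83. Extl3 had 0.19 and 0.08, and the scramble siRNA call was lost whichever of the 12 libraries was left out (adjusted p = 0.0527 to 0.254).

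Among the 7 genes that modify heparan, 6 were higher with Lsg1 siRNA and 5 with scramble siRNA. Hs6st1, a heparan 6-O-sulfotransferase, had 108, 109 and 106 CPM in ER-bound RNA, against 78.3, 76.1 and 75.5 CPM in whole-cell RNA with Lsg1 siRNA, a log2 fold of 0.49 (SE 0.03, adjusted p = 1.07e-10). It had 107, 107 and 108 CPM in ER-bound RNA, against 78.4, 77.5 and 78.2 CPM in whole-cell RNA with scramble siRNA, a log2 fold of 0.46 (SE 0.03, adjusted p = 2.42e-10). Replicates of Hs6st1 lay within a few CPM of each other, and the groups were far apart. The list holds 2 genes of the N-deacetylase/N-sulfotransferases, which remove acetyl groups and add sulfate to the chain, and both were measured. Ndst2 had log2 folds of 0.53 with Lsg1 siRNA and 0.51 with scramble siRNA and was called higher, while Ndst1 had -0.10 and -0.08 and passed with neither (adjusted p = 0.0541 and 0.139); with the GC and length offset its log2 folds were 0.05 and 0.09, again with no call. Ndst1 passed as lower with Lsg1 siRNA when any of 9 libraries was left out (adjusted p = 0.0145 to 0.0497). Hs3st1, a heparan 3-O-sulfotransferase at under 1 CPM, was called higher with Lsg1 siRNA (log2 fold 1.06, SE 0.19) and not with scramble siRNA (0.40, SE 0.19); the test of that difference did not pass (adjusted p = 0.698).

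The extracellular sulfatases Sulf1 and Sulf2 remove 6-O-sulfate from finished heparan sulfate outside the cell. Sulf2 had 330, 321 and 334 CPM in ER-bound RNA, against 169, 164 and 178 CPM in whole-cell RNA with Lsg1 siRNA. It had 321, 308 and 319 CPM in ER-bound RNA, against 170, 169 and 170 CPM in whole-cell RNA with scramble siRNA. ER-bound libraries were nearly double the whole-cell ones in each lysate, with log2 folds of 0.95 (SE 0.03, adjusted p = 7.63e-14) for Lsg1 siRNA and 0.90 (SE 0.03, adjusted p = 1.79e-13) for scramble siRNA. Sulf1 had small log2 folds of 0.15 and 0.17; the first was lost when any of 6 libraries was left out and the second without the first whole-cell scramble library (adjusted p = 0.136). Per kilobase of transcript in whole-cell RNA with scramble siRNA, Sulf2 came first of the 47 genes at 37.1 CPM per kb, followed by Agrn at 25.1, Dse at 22.0 and Hs6st1 at 21.0 CPM per kb.

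The 3 precursor enzymes are soluble proteins with no signal peptide. Ugdh makes UDP-glucuronic acid, and Papss1 and Papss2 make the sulfate donor PAPS. Papss1 had 14.8, 13.9 and 12.6 CPM in ER-bound RNA, against 17.0, 16.1 and 17.3 CPM in whole-cell RNA with Lsg1 siRNA, a log2 fold of -0.28 (SE 0.06, adjusted p = 5.08e-04). It had 15.0, 13.5 and 14.3 CPM in ER-bound RNA, against 17.4, 17.1 and 17.0 CPM in whole-cell RNA with scramble siRNA, for a log2 fold of -0.27 with SE 0.06 and adjusted p = 7.06e-04. The groups of Papss1 did not overlap, and its log2 fold was further from 0 with the GC and length offset (-0.39 with Lsg1 siRNA and -0.37 with scramble siRNA).

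Ugdh had 35.5, 38.9 and 34.3 CPM in ER-bound RNA, against 43.0, 40.4 and 39.3 CPM in whole-cell RNA with Lsg1 siRNA, a log2 fold of -0.18 (SE 0.05, adjusted p = 0.00247). It had 36.6, 35.9 and 36.3 CPM in ER-bound RNA, against 40.4, 40.0 and 41.1 CPM in whole-cell RNA with scramble siRNA, for a log2 fold of -0.16 with SE 0.05 and adjusted p = 0.00502. The groups did not overlap, yet with the GC and length offset Ugdh turned to called higher (0.12 with Lsg1 siRNA and 0.15 with scramble siRNA), and with library totals as the only scaling it no longer passed (adjusted p = 0.119 and 0.148). Papss2 had 1.12, 1.54 and 1.15 CPM in ER-bound RNA, against 1.40, 1.54 and 1.37 CPM in whole-cell RNA with Lsg1 siRNA, and 0.968, 1.10 and 1.41 CPM in ER-bound RNA, against 1.15, 1.51 and 1.23 CPM in whole-cell RNA with scramble siRNA. Its groups overlap, and it did not pass (log2 folds -0.19 and -0.16, SE 0.17 each).

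Lsg1 siRNA against scramble siRNA gave 5 calls among the 46 genes in ER-bound RNA, 4 higher and 1 lower, against 2.63% higher and 1.38% lower of all tested genes. The 4 higher genes were the glypicans Gpc4 and Gpc1, the heparan 2-O-sulfotransferase Hs2st1 and the syndecan Sdc1, and the lower one was the chondroitin initiator Csgalnact2. The median log2 fold of the list was 0.06, against 0.01 over all tested genes. Deviations of ER-bound samples with the same replicate number had correlations of 0.399, 0.156 and 0.321 over genes of at least 10 CPM. Over all tested genes these were 0.173, 0.00727 and 0.144. With the replicate number as a block 8 genes were higher and 1 lower, against 4.23% higher and 2.42% lower of all tested genes in the same fit. Xylt1, Chpf, Ext1 and Extl3 were the added ones, at blocked log2 folds of 0.26, 0.14, 0.12 and 0.11 (adjusted p = 0.0436, 0.0437, 0.0267 and 0.0356).

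Csgalnact2 had 6.72, 6.13 and 6.41 CPM in ER-bound RNA with Lsg1 siRNA, against 9.76, 10.6 and 10.6 CPM in ER-bound RNA with scramble siRNA. In whole-cell RNA it had 7.62, 7.07 and 7.31 CPM with Lsg1 siRNA, against 8.37, 9.14 and 8.19 CPM with scramble siRNA. The groups did not overlap in either fraction. The log2 fold in ER-bound RNA was -0.68 (SE 0.07, adjusted p = 2.4e-05), and it was called in each of 23 alternative settings (log2 fold -0.72 to -0.66). In whole-cell RNA the log2 fold of -0.23 (SE 0.07) did not pass the adjusted threshold.

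Gpc4 had 49.0, 45.5 and 46.5 CPM in ER-bound RNA with Lsg1 siRNA, against 38.8, 39.1 and 40.2 CPM in ER-bound RNA with scramble siRNA. In whole-cell RNA it had 23.9, 24.1 and 22.6 CPM with Lsg1 siRNA, against 23.3, 22.1 and 23.0 CPM with scramble siRNA. The groups were apart in ER-bound RNA and overlapped in whole-cell RNA. The log2 fold in ER-bound RNA was 0.26 (SE 0.04, adjusted p = 0.00109) and was called in each of 23 alternative settings (adjusted p of 0.0134 at most), and in whole-cell RNA it was 0.05 (SE 0.04).

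Gpc1, whose ER-bound values are given above, had no overlap between siRNAs in ER-bound RNA and a log2 fold of 0.15 (SE 0.03, adjusted p = 0.0224). Hs2st1 had 71.8, 69.7 and 71.6 CPM in ER-bound RNA with Lsg1 siRNA, against 64.3, 63.1 and 66.4 CPM in ER-bound RNA with scramble siRNA, a log2 fold of 0.14 (SE 0.03, adjusted p = 0.0269). Sdc1 had 86.4, 78.2 and 77.4 CPM in ER-bound RNA with Lsg1 siRNA, against 73.5, 71.3 and 73.8 CPM in ER-bound RNA with scramble siRNA, for a log2 fold of 0.15 with SE 0.04 and adjusted p = 0.0439. The groups of all 3 genes were apart but the differences were small. These calls depended on the number of libraries: Gpc1 was lost when any of 8 libraries was left out, and Hs2st1 and Sdc1 when any of 11 was, in each case including each single ER-bound Lsg1 library and the third ER-bound scramble library. Without the third ER-bound scramble and the third whole-cell Lsg1 libraries together, none of the 3 passed (adjusted p = 0.066 to 0.123). Xylt1 and Hspg2 were called higher then, as they were without the third ER-bound scramble library alone. With no filter on low counts all 3 were lost and Hspg2 was called higher (adjusted p = 4.19e-04), and with the GC and length offset Sdc1 was lost (adjusted p = 0.0513) and Hspg2 was called higher (adjusted p = 0.0217).

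**Figure D3:**
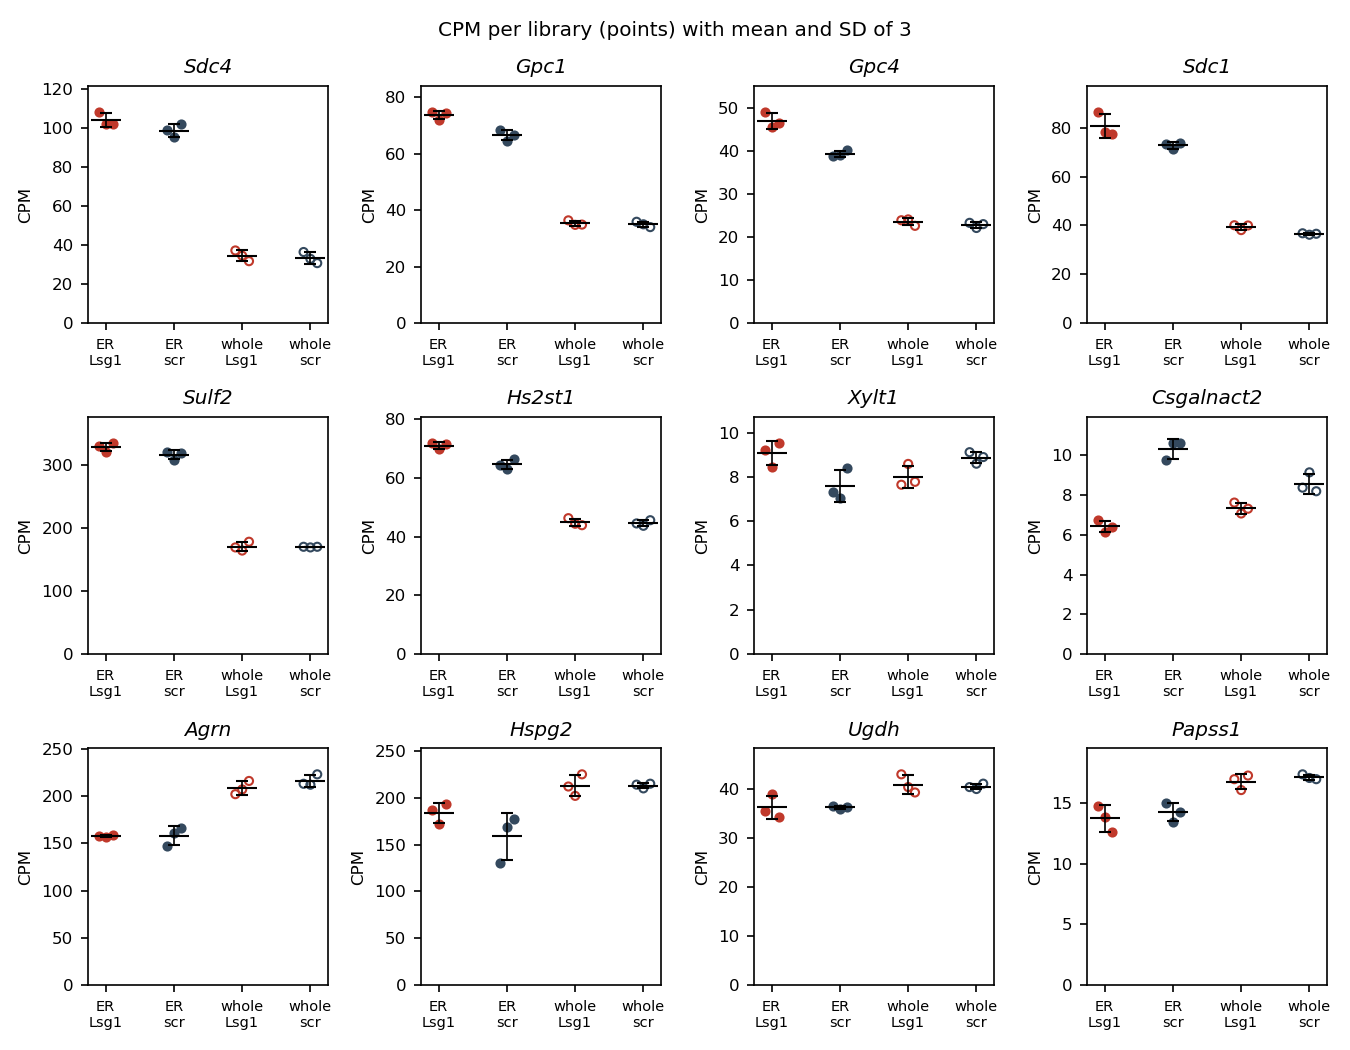
CPM per library of 12 genes in ER-bound RNA (filled) and whole-cell RNA (open) with Lsg1 siRNA (red) and scramble siRNA (dark); bars give the mean and SD of 3 libraries and each axis starts at 0. Sdc4, Gpc1, Gpc4, Sdc1, Sulf2 and Hs2st1 are higher in ER-bound RNA, Agrn, Hspg2, Ugdh and Papss1 are lower, and Csgalnact2 is lowest in ER-bound RNA with Lsg1 siRNA.

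In whole-cell RNA, edgeR called 0 of the 46 genes and 0% of all tested genes between Lsg1 and scramble siRNA. At an unadjusted p under 0.05, 4 of the 46 genes passed, against 4.13% of all tested genes, and DESeq2 and limma-voom called none on the list. Csgalnact2 had the smallest p on the list, followed by Chst7, a chondroitin 6-O-sulfotransferase. Chst7 had 0.484, 0.743 and 0.590 CPM in whole-cell RNA with Lsg1 siRNA, against 0.909, 0.810 and 0.967 CPM in whole-cell RNA with scramble siRNA, a log2 fold of -0.51 (SE 0.18). The Chst7 groups did not overlap, at levels where 1 library gives few reads.

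**Figure D4:**
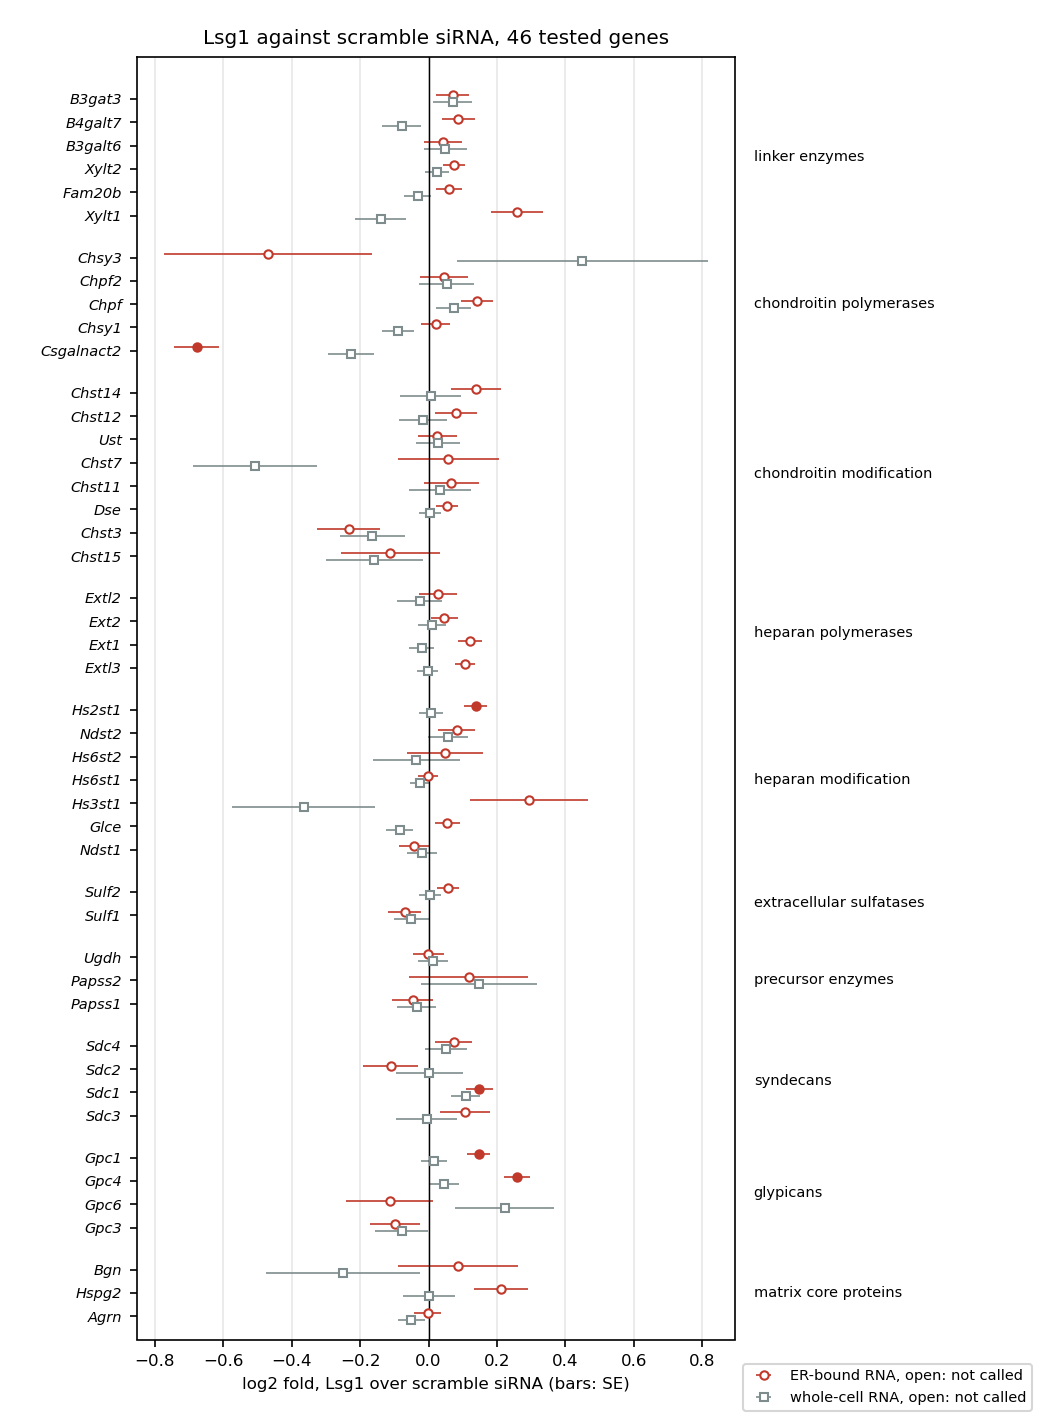
Log2 fold of Lsg1 over scramble siRNA with its SE for the 46 tested genes in ER-bound RNA (red circles, upper) and whole-cell RNA (grey squares, lower); filled symbols passed an adjusted p of 0.05. Filled symbols are Csgalnact2 at -0.68 and, on the right, Gpc4, Gpc1, Sdc1 and Hs2st1 at 0.14 to 0.26, all in ER-bound RNA.

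Whether the ER-bound fold itself differed between siRNAs was tested as an interaction. edgeR called 0 of the 46 genes, against 0.0113% of all tested genes in each direction, while 11 of the 46 and 6.89% of all tested genes had an unadjusted p under 0.05; DESeq2 and limma-voom also called none. Csgalnact2 had the smallest p, with an interaction of -0.45 (SE 0.10, unadjusted p = 1.82e-04, adjusted p = 0.202). Its ER-bound to whole-cell log2 ratio was -0.18, -0.20 and -0.19 in the Lsg1 siRNA lysates, against 0.22, 0.21 and 0.36 in the scramble siRNA lysates, so that no lysate of either siRNA shared a sign with the other. It was called lower in ER-bound than in whole-cell RNA with Lsg1 siRNA (log2 fold -0.19, SE 0.07, adjusted p = 0.0292), and higher with scramble siRNA (0.27, SE 0.06, adjusted p = 0.00161). The lower call was lost without the second ER-bound Lsg1 library (adjusted p = 0.0892), with library totals alone (log2 fold -0.10, adjusted p = 0.252), with no filter on low counts (adjusted p = 0.0603) and with DESeq2 (adjusted p = 0.0545). With the GC and length offset Csgalnact2 was called higher with both siRNAs, at 0.35 with Lsg1 siRNA (adjusted p = 1.75e-04) and 0.81 with scramble siRNA. Xylt1 came next, with an interaction of 0.40 (SE 0.11, adjusted p = 0.426); its ratio was 0.27, -0.02 and 0.29 in the Lsg1 siRNA lysates and -0.31, -0.28 and -0.08 in the scramble siRNA lysates.

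The wider pathway, 89 genes not on the list of 47, gave 76 tested genes. Of these, 52 were higher and 5 lower in ER-bound RNA with Lsg1 siRNA (68.4% and 6.58%), against 30.6% and 29.8% of all tested genes. With scramble siRNA, 51 were higher and 8 lower (67.1% and 10.5%), against 29.8% and 29.1% of all tested genes. Counts and folds of the pathway groups that follow are for scramble siRNA unless another is named. Among 16 genes of precursor supply and Golgi carriers, 8 were higher and 4 lower with scramble siRNA (50% and 25%). The lower share was near that of all tested genes. The UDP-xylose synthase Uxs1 (log2 fold 0.80, SE 0.05) and the Golgi PAPS carrier Slc35b2 (0.73, SE 0.04), which both act in the Golgi, were among the higher ones. Of 14 tested genes among other polymerases and sulfotransferases, 8 were higher and 6 did not pass, and the smallest p belonged to Extl1 (0.51, SE 0.07) and Chst10 (0.37, SE 0.05). Of the genes listed for lysosomal degradation of glycosaminoglycans, 14 of 17 were higher, while 3 did not pass, with the hyaluronidase gene Hyal2 at 0.96. Other core proteins and proteins that sometimes carry chains were higher for 10 of 16 tested genes and lower for 3 (62.5% and 18.8%). The leading ones by p were Notum, at 0.83, and the large cartilage proteoglycan Acan. Notum, a lipase known to act on Wnt proteins, was counted in this group although it is not a core protein. With scramble siRNA Acan had a log2 fold of -0.80 (SE 0.08, adjusted p = 5.98e-08). With Lsg1 siRNA it had 6.01, 6.37 and 5.78 CPM in ER-bound RNA, against 8.49, 8.46 and 9.65 CPM in whole-cell RNA. The ER-bound to whole-cell log2 ratio of Acan was -0.492, -0.405 and -0.73 in the Lsg1 siRNA lysates. It was further from 0 in 2 of the scramble siRNA lysates than in any Lsg1 siRNA lysate, at -0.929, -0.717 and -0.752. Acan was thus low in expression and lay below its whole-cell values in every lysate, as Agrn and Hspg2 did.

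Ligands and receptors listed as dependent on heparan sulfate were higher in ER-bound RNA for 11 of 13 genes and lower for 1 with scramble siRNA. These are 84.6% and 7.69%, against 29.8% and 29.1% of all tested genes. The smallest p belonged to the Nodal antagonists Lefty2 (log2 fold 1.70) and Lefty1 (1.30). Between siRNAs in ER-bound RNA, 2 of the 13 were higher and 2, Lefty1 and Lefty2, were lower, against 2.63% higher and 1.38% lower of all tested genes. These 13 genes were chosen with earlier results of these data known, so the counts only describe them and are no test of the group. Lefty1 had 84.5, 79.8 and 87.0 CPM in ER-bound RNA with Lsg1 siRNA, against 112, 106 and 111 CPM with scramble siRNA, a log2 fold of -0.39 (SE 0.04, adjusted p = 2.65e-05), and Lefty2 had -0.21 (SE 0.05, adjusted p = 0.027).

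Exons of 11 of the 47 genes overlap another gene in the GENCODE annotation, most of them on the opposite strand, including Gpc1 with Ankmy1, Sulf2 with Ncoa3, Hs6st1 with Gm37335 and Ugdh with Gm43552 on its own strand. The strand setting of the counting is not stated in the sources used here, so how reads of the opposite-strand pairs were assigned is not known. For pairs on the same strand, such as Ugdh and Gm43552, no strand setting separates the reads. A fold in ER-bound RNA is relative to the other genes of its library after TMM scaling, and is not an absolute amount.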

How the data were processed

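The authors deposited raw counts per gene for each library, not normalized. Per the submitters' processing notes, STAR 2.7.9a mapped the reads on GRCm39, HTSeq 0.11.2 counted them, and DESeq2 was used; neither annotation release nor strand setting was stated. Libraries were made from 750 ng of RNA with poly-A selection, a directional kit and 9 PCR cycles, per the labels' protocols. Each table has 55416 gene IDs and 5 summary lines, which were left out of library sizes and tests: they held 2.65% to 5.26% of reads outside features, 6.09% to 8.23% with several alignments and 0.97% to 1.16% ambiguous ones. Names, coding sequences, GC content and length came from GENCODE vM21 on the older GRCm38, matched by gene ID; 52083 IDs (94.0%) had a name. Coordinates printed are those of that GRCm38 annotation.

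After TMM scaling, filterByExpr left 17702 genes. These were tested with edgeR 4.0.16 (quasi-likelihood, 8 residual degrees of freedom, prior count 2) in R 4.3.3, in 1 model over all 12 libraries with 1 mean per group. P-values were adjusted by Benjamini-Hochberg over all tested genes, with a threshold of 0.05, and "called", "higher" and "lower" mean that it was passed. The script was tested on simulated data. DESeq2 1.42.0 and limma 3.58.1 served as alternatives. Values are CPM with the SD of 3 replicates, which holds counting error and differences between replicates. P-values set a difference between groups against the spread between libraries within groups. Whether replicates were separate cultures beyond the label is not known.

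The genes, the lists and the rule for named genes were chosen with earlier results of these data known. Csgalnact2 was in the rule by name, because an earlier analysis of these data had named it. Values per library are given for the gene with the smallest p in each role, each gene lower in ER-bound RNA, the genes past the threshold or with the 2 smallest p between siRNAs, and Ugdh, Papss1 and Papss2; for each wider pathway group, the 2 genes with the smallest p are named, except 1 gene that is not reported here. Acan and the Lefty genes fall under the last rule, and their values per library were added. Smc3, once described as the proteoglycan bamacan, was left out of the counts.

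Fractions share lysates and so are paired by the design. The main model did not use this pairing, so its p-values for ER-bound against whole-cell RNA and for the interaction are unpaired. The replicate block, an alternative, used the lysate as block for these comparisons. ER-bound and whole-cell libraries of a lysate had correlations of 0.284, 0.0167 and 0.295 with Lsg1 siRNA, and 0.152, -0.074 and 0.259 with scramble siRNA. These are deviations from group means over genes of at least 10 CPM on average. Same-numbered ER-bound libraries of the siRNAs deviated together over 9251 genes of at least 10 CPM on average (correlations 0.399, 0.156 and 0.321), which was taken as pairing, although over all tested genes they were 0.173, 0.00727 and 0.144. In whole-cell RNA the correlations were 0.332, -0.00409 and 0.352, and 1 pair did not deviate together. Libraries with different replicate numbers were not compared in this way. Figures were drawn with matplotlib in Python 3.11.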

Additional observations from a re-analysis of the deposited data

Results flagged for a closer look

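Csgalnact2, which starts chondroitin chains, was the one gene on the list whose ER-bound to whole-cell ratio had opposite signs in all lysates of the siRNAs: negative in 3 of 3 Lsg1 siRNA lysates and positive in 3 of 3 scramble siRNA lysates. An earlier analysis of these same data had already named this gene, so the flag is not an independent finding. The interaction was -0.45 (log2, SE 0.10), and its adjusted p of 0.202 did not pass the threshold; over the alternatives the adjusted p was 0.0246 to 0.707. The opposite signs rest on the scale: with the GC and length offset both siRNAs gave a positive ratio. In whole-cell RNA its log2 fold between Lsg1 and scramble siRNA was -0.23, which did not pass the adjusted threshold. Groups of 3 libraries were too small for the search for single samples far from the others.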

How the results depend on the processing

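The count of genes higher in ER-bound RNA stayed within 33 to 40 with Lsg1 siRNA and 33 to 38 with scramble siRNA over all 23 alternatives run. The count of lower genes was 5 with either siRNA, and fell to 2 with Lsg1 siRNA and 3 with scramble siRNA under library totals alone, to 2 with either siRNA under the GC and length offset, and to 3 with Lsg1 siRNA under DESeq2; single libraries left out gave 4 to 6. Under the offset, Xylt1 (0.159), Ugdh (0.153) and Hspg2 (0.066) turned positive with scramble siRNA, and Csgalnact2 (0.352), Ugdh (0.119) and Hspg2 (0.256) with Lsg1 siRNA; Ndst1, not called either way, turned positive with both (0.048 and 0.092). The offset removes GC and length trends by construction. Library totals alone put the median of all tested genes at 0.11 and that of the list at 0.64 with Lsg1 siRNA and 0.60 with scramble siRNA. Between siRNAs in ER-bound RNA, the count of higher genes was 4, and became 2 with no filter on low counts (Gpc4 and Hspg2), 1 with only the groups compared (Gpc4), 8 with the replicate block, and 1 to 3 when single libraries were left out; the cause was not tested. Library totals added Ext1, the stricter filter Extl3, and limma-voom both. The replicate block changed no other count of calls among the 46 genes. The interaction gave 1 lower gene with no filter. Genes under 2 CPM such as Chsy3, Chst7, Hs3st1 and Papss2 had an SE of 0.15 to 0.37 in each comparison of groups, and even differences above it did not pass, such as Chst7 between siRNAs in whole-cell RNA (-0.51, SE 0.18).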
